A study of Mus musculus with 9 samples.

Results

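The Leydig sort was compared with the Interstitial sort across all genes, using RNA sequencing of cells sorted by flow cytometry from fetal mouse testes at 12.5 days post coitum (dpc). The comparison was set by the names of the sorts in the labels and not by any measured value, and it takes in 6 of the 9 libraries of the series, 3 per sort; the other 3 are the Sertoli sort. All embryos carried Sf1-eGFP, a transgene in which regulatory sequence of Nr5a1, the gene for steroidogenic factor 1 (SF1), drives a green fluorescent protein, so that the transgene itself labels any cell in which that sequence is active. No other allele or treatment is named, and all sorts shared the strain, the age and the removal of germ and endothelial cells with an antibody against CD31, the product of Pecam1. No source used here gives the fluorescence gates. Each library held 100 ng of total RNA from about 10 sorting experiments on different days, with 4 to 10 litters in each experiment. The labels describe sample A, sample B and a mix of both for every sort, so replicate C was taken by elimination as the mix. Tests therefore used A and B, and C served as a check. With 2 pools per sort, a p-value measures the spread between pools and not between embryos.

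The fetal testis at this age has formed its cords. Sertoli cells enclose germ cells inside the cords and secrete anti-Müllerian hormone, desert hedgehog and growth factors. Fetal Leydig cells arise in the interstitium between the cords, take up and mobilise cholesterol, and turn it into androgens through side-chain cleavage in the mitochondrion and further steps in the endoplasmic reticulum. The interstitium also holds progenitors, vessels, macrophages and perivascular cells, and the mesonephros, with its own epithelial tubules, lies against the gonad. In mouse fetal testes the last androgen step is carried out mainly by an enzyme of Sertoli cells, Hsd17b3, which acts on the androstenedione that Leydig cells release.

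Reads in genes numbered 33123254 to 39212312 per library of the 2 sorts, and 1 read was worth 0.0244 to 0.0301 normalised CPM over the libraries. This unit gives the count of a gene relative to all reads in genes, with library sizes scaled by TMM. Levels are given below in this unit for replicates A, B and C in that order. Log2 differences are Leydig minus Interstitial, with their standard error (SE), from edgeR's quasi-likelihood test on A and B, and a gene was called at a Benjamini-Hochberg adjusted p of 0.05 over 18048 genes. Between 13.79 and 16.75% of the reads in genes of these libraries came from mitochondrial ribosomal RNA. In bulk RNA, fewer cells of a type and less RNA per cell cannot be told apart, and this holds for every difference below.

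The reporter gene and the depleted antigen checked the labels. Nr5a1 (chromosome 2, 38692656 to 38714542, minus strand) was at 209.7, 188 and 201 CPM in Leydig A, B and C and at 51.1, 55.2 and 45.4 in Interstitial A, B and C, a log2 difference of 1.90 ± 0.07 (SE, adjusted p 8.77e-07). In the Sertoli sort it reached 397 ± 1.31 CPM (SD, n = 2), so the 3 sorts were ordered Interstitial, Leydig, Sertoli without overlap. Pecam1 was at 24.1, 35.8 and 24.3 CPM in Leydig and at 67.4, 72.2 and 67.6 in Interstitial (-1.22 ± 0.19, adjusted p 0.00127), so its RNA was present in both sorts after the depletion. Fetal Leydig markers summed to 665 to 1009 CPM over 16 genes in the Leydig libraries, 322 to 384 in the Interstitial libraries and 816 to 857 in the Sertoli libraries. The Leydig sort was thus separated from the Interstitial sort by its Leydig markers, while its range for the same sum overlapped that of the Sertoli sort.

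Of the 18048 genes tested, 8146 (45.1%) were called: 3966 (22%) higher in Leydig and 4180 (23.2%) higher in Interstitial. The shares of 22% and 23.2% are the background for every list count below. At unadjusted p below 0.05 stood 9523 genes. The differences were small on the Leydig side, where 2058 called genes differed by less than 1.5-fold and 46 by 8-fold or more. On the Interstitial side 1714 differed by less than 1.5-fold and 270 by 8-fold or more. Called at 2-fold or more were 1029 genes (5.7%) higher in Leydig and 1726 (9.56%) higher in Interstitial. Without Interstitial B the calls fell to 5535, of which 2565 were higher in Leydig. All 3 Leydig libraries lay above all 3 Interstitial libraries for 5892 genes (32.6%), and the reverse held for 5929 (32.9%). Among protein-coding genes 50.4% of 15157 were called, and among long intergenic noncoding RNAs 24.6% of 419. The median log2 difference of all genes was 0.01.

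**Figure D1:**
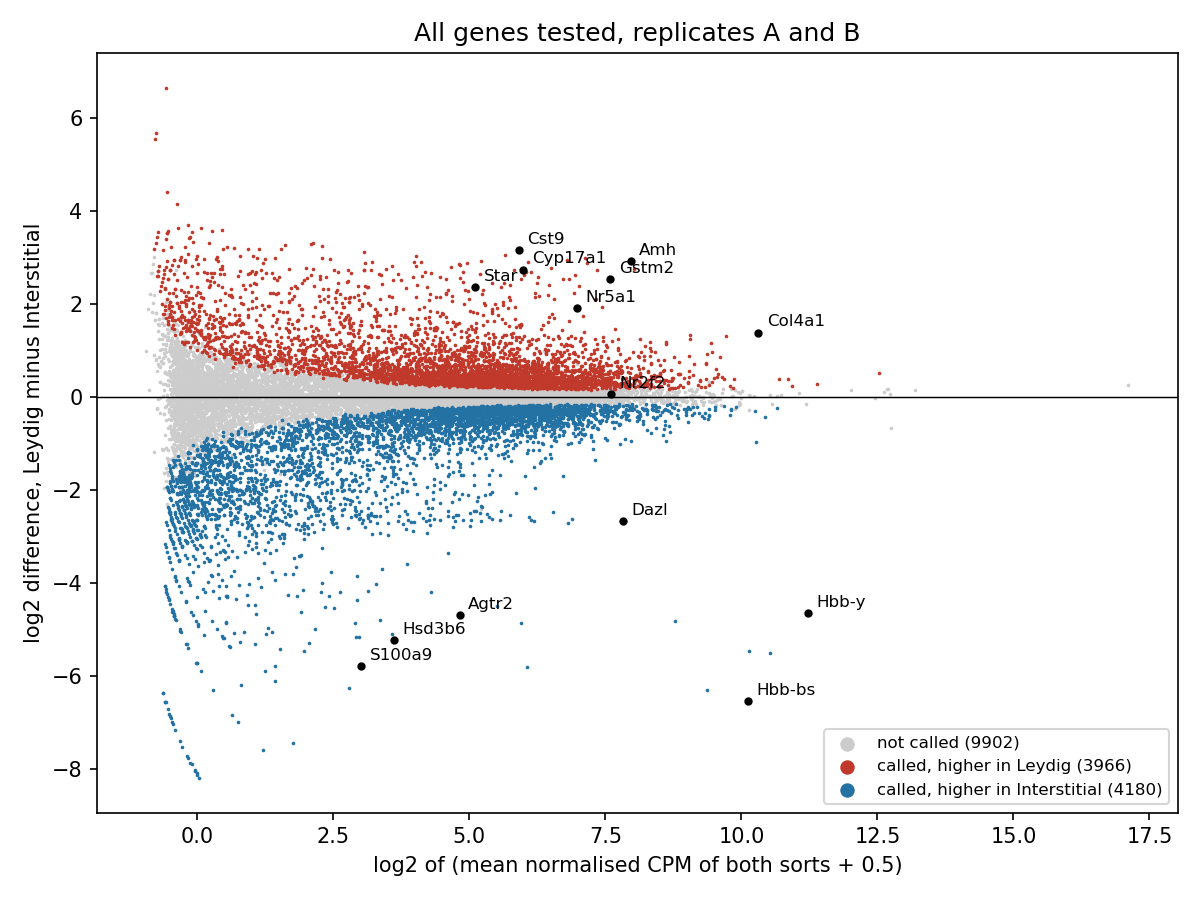
Each point is 1 of the 18048 genes tested; the horizontal axis is log2 of the mean normalised CPM of both sorts plus 0.5, the vertical axis the log2 difference, Leydig minus Interstitial, on replicates A and B. Red points (3966) were called higher in Leydig and blue points (4180) higher in Interstitial; the blue points reach further from 0, and the globin genes lie furthest below 0 among the genes with high levels.

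Fetal Leydig markers were higher in the Leydig sort for 14 of 16 tested, with a median log2 difference of 1.79 beside 0.01 for all genes. Vcam1, an adhesion molecule of Leydig cells, was at 45.6, 34.8 and 42.4 CPM in Leydig and 14.3, 12.96 and 14.5 in Interstitial (1.56 ± 0.14, adjusted p 6.51e-05), and at 17.1 ± 1.37 CPM in the Sertoli sort. Gramd1b, which moves cholesterol between membranes, differed by 1.55 ± 0.09 (adjusted p 4.91e-06). Thbs2, a matrix glycoprotein, was not called (-0.19 ± 0.29, adjusted p 0.621), and Dlk1 was called higher in Interstitial. Sult1e1, an oestrogen sulphotransferase of the adult Leydig cell, had no read in the 6 libraries.

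Most steps of androgen synthesis were higher in the Leydig sort than in the Interstitial sort. Of 22 enzymes and cofactors listed, 18 were tested, 13 were called higher in Leydig, 1 was called higher in Interstitial, and the median log2 difference was 1.08. The other 4 (Cyp11b1, Cyp11b2, Cyp21a1 and Cyp19a1, of the corticoid and oestrogen branches) had too few reads to be tested. Summed over the 18 tested, Leydig libraries held 631.6 to 884.8 CPM, Interstitial libraries 324.9 to 328.9 and Sertoli libraries 911.5 to 993.7. The list was thus not particular to the Leydig sort. In the Sertoli sort Fdxr was at 252 ± 2.32 CPM, Hsd3b1 at 104 ± 15.5 and Cyp17a1 at 74.6 ± 8.86. Scarb1, the receptor that takes up cholesterol from high-density lipoprotein, was at 107, 81.7 and 105 CPM in Leydig and 42.4, 39.5 and 40.2 in Interstitial (1.21 ± 0.12, adjusted p 0.000102). Star, which moves cholesterol into the mitochondrion, was at 70.2, 43.9 and 60.8 CPM in Leydig and 12.1, 10.1 and 12.03 in Interstitial (2.36 ± 0.20, adjusted p 5.85e-05). The lowest Leydig library was replicate B for both genes, and it still lay well above every Interstitial library.

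Cyp11a1, the side-chain cleavage enzyme that makes pregnenolone, was at 73.9, 33.7 and 62.9 CPM in Leydig against 10.2, 4.41 and 8.71 in Interstitial (2.87 ± 0.42, adjusted p 0.000859). Its electron donors differed in size: Fdxr, ferredoxin reductase, had a log2 difference of 2.16 ± 0.09 and Fdx1, ferredoxin, 1.08 ± 0.13 (adjusted p 1.36e-06 and 0.000273). Cyp17a1, which makes androgens from pregnenolone or progesterone, was at 150.3, 69.4 and 121 CPM in Leydig and 20.7, 12.1 and 19.2 in Interstitial (2.73 ± 0.36, adjusted p 0.000467). In both sorts replicate A was the highest and replicate B the lowest library for Cyp11a1 and Cyp17a1, and the groups did not overlap. Hsd17b3, the Sertoli enzyme of the last androgen step, was at 28.7, 27.3 and 30.6 CPM in Leydig and 3.08, 3.83 and 3.79 in Interstitial (3.02 ± 0.12, adjusted p 9.76e-07), and at 105 ± 10.1 CPM in the Sertoli sort. Por, the electron donor of microsomal cytochromes P450, differed by 0.33 ± 0.07, and the cytochrome b5 gene Cyb5b by 0.20 ± 0.06, the smallest called difference of the list. The call of Cyb5b was lost when any of the 4 tested libraries was left out (adjusted p up to 0.142).

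The 2 isoenzymes of 3β-hydroxysteroid dehydrogenase that were tested went opposite ways. Hsd3b1, the isoform of gonads and adrenal, was at 142.5, 83.6 and 126 CPM in Leydig A, B and C and 20.8, 14.1 and 20.6 in Interstitial (2.69 ± 0.26, adjusted p 0.000112). Hsd3b6, an isoform known from mouse placenta and adult Leydig cells, was at 0.3605, 0.835 and 0.379 CPM in Leydig and 17.1, 28.6 and 20.6 in Interstitial (-5.23 ± 0.50, adjusted p 9.78e-05), and at 0.584 ± 0.581 CPM in the Sertoli sort. Within the Interstitial sort replicate B was the highest library for Hsd3b6 and the lowest for Hsd3b1. The longest protein-coding transcripts of the pair were 84.2% identical over 1539 aligned positions, and how the counting shared reads between such copies is stated in no source used here. Both genes lie on the minus strand of chromosome 3. The 250 bases before each start are shown because they differ between the paralogs; capitals mark the letters AGATAA on either strand, letters known to be bound by GATA factors, and the sequences are RefSeq's for GRCm38.p6.
Hsd3b1, chr3:98859795-98860044, minus strand: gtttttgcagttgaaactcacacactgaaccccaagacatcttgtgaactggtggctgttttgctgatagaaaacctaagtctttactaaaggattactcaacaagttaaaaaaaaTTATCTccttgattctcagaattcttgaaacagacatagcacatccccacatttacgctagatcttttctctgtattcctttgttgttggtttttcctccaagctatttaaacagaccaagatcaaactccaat
Hsd3b6, chr3:98814444-98814693, minus strand: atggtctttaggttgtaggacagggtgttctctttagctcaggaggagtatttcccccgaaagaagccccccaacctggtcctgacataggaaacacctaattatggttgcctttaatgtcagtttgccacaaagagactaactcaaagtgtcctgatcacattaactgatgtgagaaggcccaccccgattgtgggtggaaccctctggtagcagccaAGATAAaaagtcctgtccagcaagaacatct
The match began 134 bases before the start on the opposite strand in Hsd3b1 and 31 bases before it on the same strand in Hsd3b6. No match overlapped another motif searched in the windows shown.

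Promoter letters were counted over all genes with a RefSeq window. AGATAA stood on either strand in the 250 bases before the start in 11.4% of 27025 genes, 7.54% of 12411 genes tested, 9.7% of 692 genes called at 2-fold or more higher in Leydig and 10.8% of 1198 called so in Interstitial. CAAGGTCA, the site known to be bound by SF1, stood in 1.51%, 1.32%, 3.2% and 1% of the same sets, which on the Leydig side is 22 of 692 genes. CCACACCC, a site known to be bound by the erythroid factor KLF1, stood in 3.68%, 4.07%, 4.5% and 4.34%. None of the 15 steroidogenic genes with a window held CAAGGTCA in it. These shares are descriptions of letters in short windows, without a test.

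**Figure D2:**
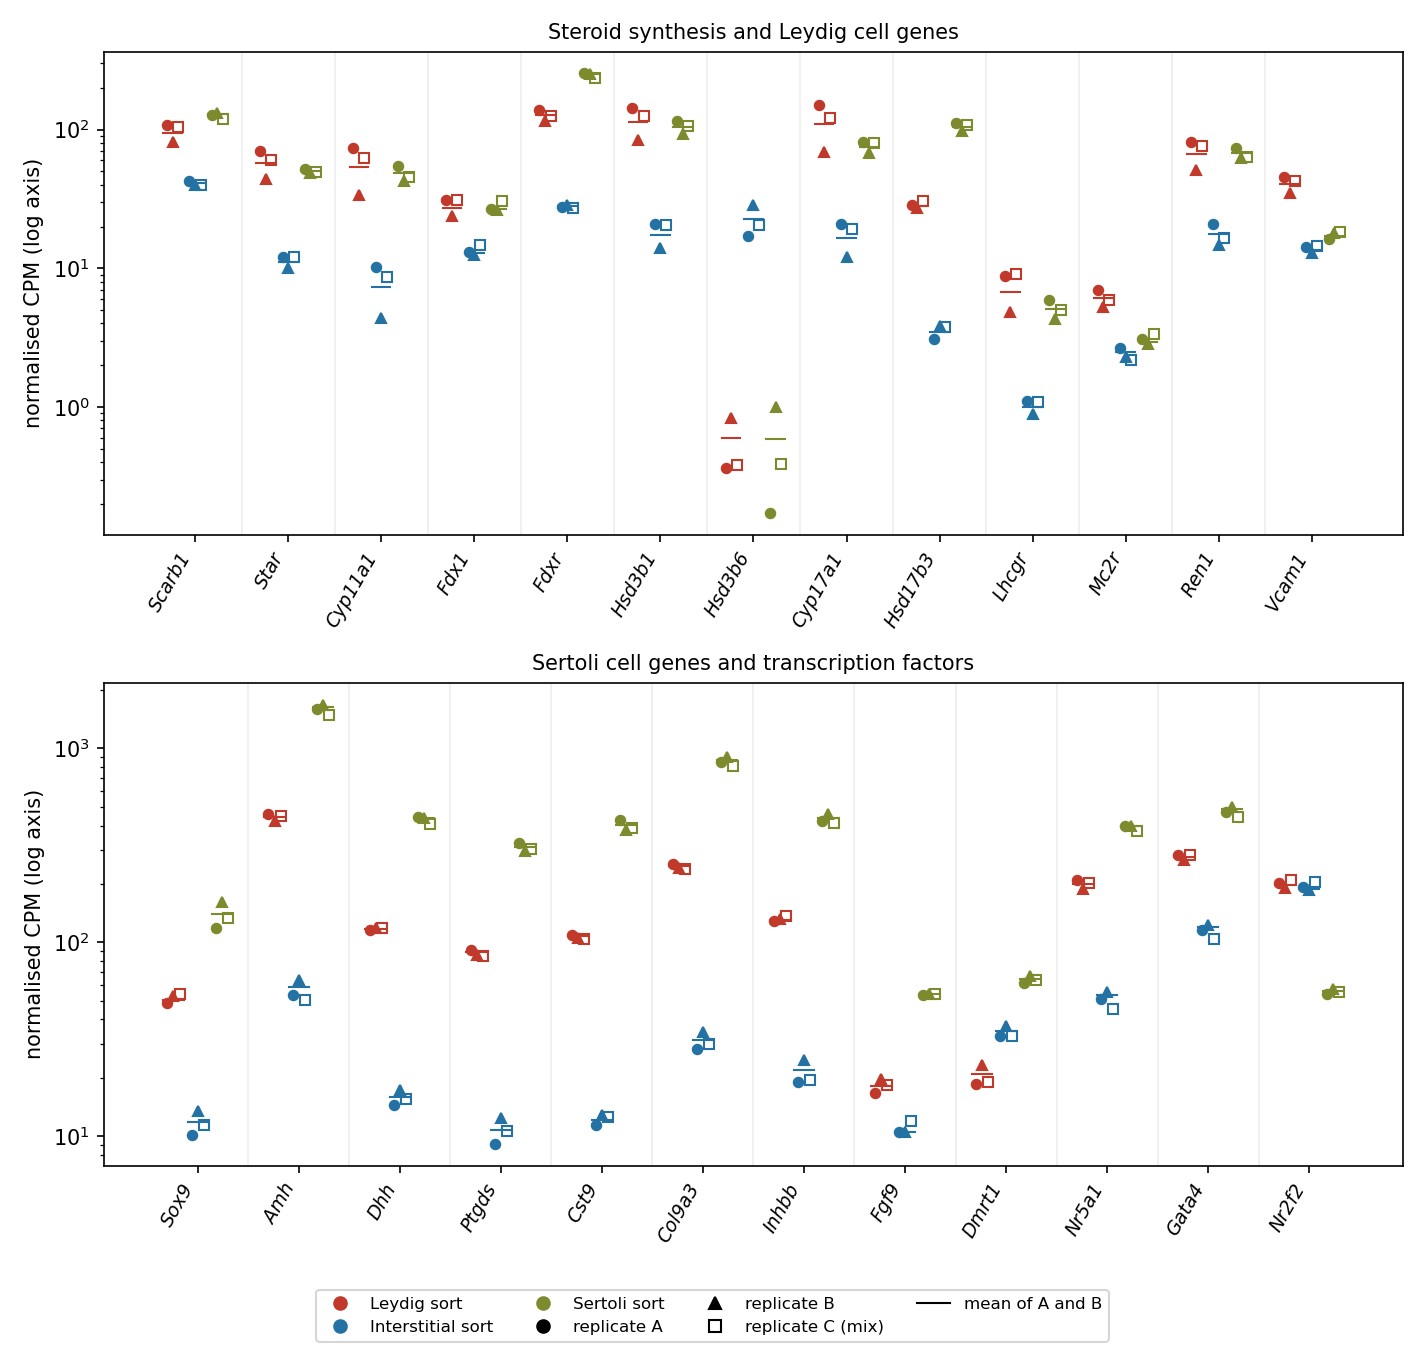
Normalised CPM of each library on a log axis, for genes of steroid synthesis and Leydig cells (top) and for genes of Sertoli cells and transcription factors (bottom); colours give the sort, symbols the replicate, and short lines the mean of A and B. Leydig libraries lie above Interstitial libraries for all genes shown except Hsd3b6 and Dmrt1, which are higher in Interstitial, and Nr2f2, where the sorts overlap; the Sertoli sort lies above both for the Sertoli genes.

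More of the listed hormones and receptors were called higher in Leydig than in Interstitial, where the shares of all genes were 22% and 23.2%. Of 36 peptide hormones and receptors tested, out of 41 listed, 19 were called higher in Leydig and 6 higher in Interstitial, with a median of 0.31. With lanes 1 and 2 alone the counts were 13 and 6. Lhcgr, the receptor for luteinising hormone, was at 8.74, 4.83 and 9.095 CPM in Leydig and 1.100, 0.893 and 1.08 in Interstitial (2.76 ± 0.33, adjusted p 0.00031). Crhr1, a receptor for corticotropin-releasing hormone, was at 7.66, 4.49 and 6.77 CPM in Leydig and 1.25, 0.806 and 1.28 in Interstitial (2.55 ± 0.31, adjusted p 0.000344). Every Leydig library was above every Interstitial library for both receptors, with replicate B the lowest of each sort. Oxtr, the oxytocin receptor, differed by 2.30 ± 0.30, Prlr, the prolactin receptor, by 1.69 ± 0.19, and Mc2r, the receptor for adrenocorticotropin, by 1.30 ± 0.20 (adjusted p 0.000473, 0.000239 and 0.00106). Fshr, the receptor for follicle-stimulating hormone on Sertoli cells, rested on 21 reads in Leydig A and B and 2 in Interstitial A and B, a ratio of 11.7 (95% exact interval of the counts 2.85 to 103, counting error only). Its call was lost without any 1 of Leydig A, Interstitial A and Interstitial B.

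Among the ligands, Nppc, C-type natriuretic peptide, was at 8.14, 7.598 and 7.99 CPM in Leydig and 1.71, 1.78 and 1.92 in Interstitial (2.17 ± 0.17, adjusted p 3.39e-05). Ren1, renin, was at 81.5, 51.00 and 76.1 CPM in Leydig and 20.97, 14.6 and 16.4 in Interstitial (1.89 ± 0.23, adjusted p 0.000344). Its substrate Agt, angiotensinogen, was on the same side at low level, 2.91, 2.02 and 3.03 against 0.929, 0.633 and 0.443 CPM (1.64 ± 0.32, adjusted p 0.00365). The type 2 angiotensin receptor Agtr2 was on the other side: 2.34, 1.81 and 2.14 CPM in Leydig and 64.1, 43.3 and 64.7 in Interstitial (-4.69 ± 0.23, adjusted p 3.08e-06). The type 1 receptor gene Agtr1a was not called, at 0.901, 1.06 and 0.758 CPM in Leydig and 1.54, 1.04 and 1.599 in Interstitial (-0.40 ± 0.34, adjusted p 0.382), and its libraries overlapped. Renin and angiotensinogen were thus higher in the Leydig sort and Agtr2 in the Interstitial sort. The opioid precursors were also called in both directions, with Pdyn (prodynorphin) at 1.62 ± 0.18 and Penk (proenkephalin) at -3.18 ± 0.39 (adjusted p 0.000195 and 0.000358). Insl3, the Leydig hormone of testis descent, was at only 0.781, 0.633 and 0.596 CPM in Leydig and 0.171, 0.144 and 0.0984 in Interstitial (2.13 ± 0.48, adjusted p 0.00674), and its call was lost when lanes 1 and 2 alone were used (adjusted p 0.0913). Means of A and B in Leydig and Sertoli were 66.2 and 67.9 CPM for Ren1 and 0.707 and 0.630 for Insl3, so neither was particular to the Leydig sort. For Prlr the same means were 26.9 and 15.6 CPM, and for Mc2r 6.13 and 2.96.

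Cholesterol genes were called in both directions. Uptake, storage and transport genes were called higher in Leydig for 11 of 23 tested and higher in Interstitial for 4, with a median of 0.22. The 21 genes of cholesterol synthesis gave 4 calls each way, near the shares of all genes, and a median of -0.09; the lists were not tested against each other. Plin3, a lipid droplet coat protein, differed by 0.91 ± 0.07, Abca1, a cholesterol exporter, by 0.69 ± 0.06, and Soat1, which esterifies cholesterol for storage, by 0.58 ± 0.06 (adjusted p 3.97e-05, 4.34e-05 and 0.000139). On the other side were Lrp2 (megalin, an endocytic receptor of epithelia), at 12.6, 13.2 and 11.7 CPM in Leydig and 48.5, 66.7 and 54.2 in Interstitial (-2.16 ± 0.15, adjusted p 1.69e-05), and the exporter Abcg1 at -1.19 ± 0.15. In the synthesis pathway the committed step from farnesyl diphosphate, Fdft1, was lower in Leydig, at -0.80 ± 0.09, as was Fdps at -0.52 ± 0.07, while the later enzyme Ebp was higher, at 0.67 ± 0.13 (adjusted p 0.000211, 0.000405 and 0.003). On the Leydig side the uptake count of 11 fell to 6 without Interstitial B and 7 without Leydig A, and the synthesis count of 4 fell to 2 without Leydig A, Interstitial A or Interstitial B.

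Of 29 transcription factors of steroidogenic cells tested, 10 were called higher in Leydig and 6 higher in Interstitial, with a median of 0.22. The shares of all genes were 22% and 23.2%, so the count of 6 was near its share. With all 9 libraries in the fit, which counts the mix C as a further replicate although it is no independent one, 16 were called higher in Leydig. On the Leydig side the largest difference after Nr5a1 was that of Gata4, a zinc-finger factor of gonadal somatic cells, at 283, 266 and 282 CPM in Leydig and 116, 122 and 104 in Interstitial (1.20 ± 0.07, adjusted p 4.91e-06). Nr0b1 (DAX1), which represses SF1 targets, differed by 1.03 ± 0.16 and Lhx9, a factor of the early gonad, by 0.69 ± 0.07 (adjusted p 0.00113 and 0.00016). Nr5a2, the SF1 paralog also known from germ cells and early embryos, was higher in Interstitial, at 1.53, 5.41 and 2.79 CPM in Leydig and 14.2, 16.1 and 14.2 in Interstitial (-2.11 ± 0.41, adjusted p 0.0032). Its Leydig libraries differed among themselves in the order of the germ cell markers given further on, with B the highest, and the part of germ cells in its difference was not tested.

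Markers of interstitial progenitors did not separate the sorts as a list. Of 21 tested, 8 were called higher in Leydig and 7 higher in Interstitial, with a median of 0.15. Nr2f2 (COUP-TFII), a factor widely used to mark non-steroidogenic interstitial cells, was at 203, 190.3 and 210.4 CPM in Leydig and 192, 186 and 204.5 in Interstitial (0.06 ± 0.06, adjusted p 0.495), and at 55.8 ± 2.67 CPM in the Sertoli sort. Higher in Leydig were Pdgfra, the PDGF receptor of Leydig precursors, by 0.70 ± 0.07, and Ptch1, the hedgehog receptor and target, by 0.82 ± 0.08 (adjusted p 0.000101 and 0.000127). Higher in Interstitial were the matrix genes Lum, at 5.17, 5.32 and 4.601 CPM in Leydig and 24.8, 16.7 and 24.7 in Interstitial (-1.98 ± 0.25, adjusted p 0.000363), Dcn at -0.87 ± 0.12 and Col1a1 at -0.77 ± 0.08. Summed over the list, Leydig libraries held 3871 to 4183 CPM, Interstitial libraries 3522 to 3776 and Sertoli libraries 1544 to 1736. The sum is weighted towards the abundant members and does not speak for the single markers.

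Among genes at 5 CPM or more, the 12 with the largest differences on the Leydig side stood higher still in the Sertoli sort. Of 27 Sertoli markers, 25 were called higher in Leydig and 1, Dmrt1, higher in Interstitial, and the median of 2.58 exceeded that of the Leydig markers, 1.79. With that minimum level and no overlap of the 6 libraries, the 12 leading genes were Cnga1, Acsm3, Ctrb1, Cst9, Ptgds, Hsd17b3, Col9a3, Slc6a14, Mt3, Aard, Defb19 and Amh, with log2 differences from 3.31 down to 2.91. Amh, anti-Müllerian hormone (chromosome 10, 80805243 to 80807648, plus strand), was at 459, 424.5 and 446 CPM in Leydig, 53.7, 64.1 and 50.1 in Interstitial and 1638 ± 62.6 CPM in the Sertoli sort (2.91 ± 0.10, adjusted p 4.74e-07). Cst9, a cystatin, was at 109, 106 and 104 CPM in Leydig and 11.4, 12.8 and 12.5 in Interstitial (3.15 ± 0.09, adjusted p 3.84e-07). Sox9, the factor that drives Sertoli fate, was at 48.5, 52.8 and 54.03 CPM in Leydig and 10.2, 13.4 and 11.4 in Interstitial (2.11 ± 0.17, adjusted p 3.78e-05). Replicates A, B and C of each sort lay close together for these 3 genes, and the sorts did not overlap.

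Each Sertoli marker was set against its level in the Sertoli sort. Leydig means of A and B were at a median of 28.8% of the Sertoli mean over the 27 markers (21.1 to 50.4%, lowest Rhox8 and highest Gdnf). Interstitial means were at a median of 4.99% (2.45 to 54.3%, lowest Ctrb1 and highest Dmrt1). All 12 leading genes had a higher mean in the Sertoli sort than in the Leydig sort, at 23 to 31.2% of the Sertoli mean in Leydig and 2.45 to 3.95% in Interstitial. Of these 12, all but Cnga1, Acsm3, Slc6a14 and Mt3 were also on the Sertoli marker list. The leading genes and the marker list are thus no separate observations, and the list was chosen with earlier results of these data known. The 16 fetal Leydig markers differed from this, with a Leydig mean at a median of 112% of the Sertoli mean (41.4% for Inha to 325% for Dlk1), and 5 of them were higher in the Sertoli sort. All Sertoli markers but Dmrt1 were higher in Leydig than in Interstitial, Rhox8 without a call. Any genes higher in Leydig share that side by definition, so the shared side shows no link between them. The 27 Sertoli markers summed to 2062 to 2146 CPM in Leydig, 338 to 388 in Interstitial and 6910 to 7229 in Sertoli libraries. The 12 leading genes were also highest in the Sertoli sort, but some other Leydig-side genes were lowest there. Means of A and B in Leydig, Interstitial and Sertoli were 238.5, 148.1 and 61.51 CPM for Lhx9. For Pdgfra they were 690, 424 and 227.1 CPM, and for Hoxd9 72.75, 42.37 and 18.89 CPM. The part of cells or RNA of Sertoli type in the Leydig-side results was not tested.

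Dmrt1 went against its list. This factor of Sertoli and germ cells was at 18.6, 23.4 and 19.1 CPM in Leydig and 32.99, 37.1 and 32.8 in Interstitial (-0.74 ± 0.12, adjusted p 0.00118), and at 64.5 ± 3.598 CPM in the Sertoli sort. Germ cell markers, which were higher in Interstitial, moved with it, and their part in its difference was not tested. Fgf9, a Sertoli growth factor also made by other cells, showed a small difference for the list, 0.80 ± 0.10, as did Fgf18, 0.69 ± 0.17 (adjusted p 0.000386 and 0.00933). Without Interstitial B the call of Fgf18 was lost, as it was with lanes 1 and 2 alone (adjusted p up to 0.24).

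Hedgehog signalling links the 2 compartments, since Sertoli cells make the ligand Dhh and interstitial cells respond through Ptch1 and the Gli factors. Of 16 genes, 9 were called higher in Leydig and 1 higher in Interstitial (median 0.28). The shares of all genes, 22% and 23.2%, stand beside this list and the Notch list given after it. Dhh itself was at 116, 119 and 118 CPM in Leydig and 14.4, 17.2 and 15.6 in Interstitial (2.90 ± 0.09, adjusted p 4.74e-07). In the Sertoli sort Dhh was higher than in both, at 439 ± 1.62 CPM. Hhip, a decoy receptor induced by the pathway, was at 77.7, 62.4 and 75.03 CPM in Leydig and 19.04, 16.2 and 17.7 in Interstitial (1.99 ± 0.13, adjusted p 1.5e-05). Of the transcriptional effectors, Gli2 differed by 0.49 ± 0.10 and Gli1 by 0.45 ± 0.11 (adjusted p 0.00392 and 0.0087), and without Interstitial B the call of Gli1 was lost. The co-receptor gene Gas1 was the 1 member called higher in Interstitial (-0.75 ± 0.07, adjusted p 0.000117). In the Notch list 6 of 21 were called higher in Leydig, led by the target genes Hes5 (1.38 ± 0.19) and Heyl (1.34 ± 0.12), and 2 higher in Interstitial (1 without Interstitial B), led by the ligand gene Dll3 (-1.83 ± 0.34).

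Retinoic acid genes were called in both directions. Higher in Leydig were the enzyme that breaks retinoic acid down, Cyp26b1, at 202, 185 and 203 CPM in Leydig and 32.8, 34.2 and 31.1 in Interstitial (2.53 ± 0.09, adjusted p 5.05e-07), and a retinaldehyde dehydrogenase, Aldh1a1, at 485, 421 and 467.5 CPM in Leydig and 70.00, 65.2 and 74.2 in Interstitial (2.74 ± 0.09, adjusted p 5.05e-07). Higher in Interstitial were 8 of 17 genes tested, against 3 higher in Leydig, with a median of -0.33. They were led by the receptor gene Rarb, itself a well-known retinoic acid target, at 3.27, 2.96 and 2.81 CPM in Leydig and 13.3, 9.905 and 13.2 in Interstitial (-1.90 ± 0.18, adjusted p 0.000109). Stra6, a retinol transporter, differed by -1.25 ± 0.13, the receptor Rarg by -0.97 ± 0.15 and the binding protein Crabp1 by -0.82 ± 0.18 (adjusted p 0.00013, 0.00113 and 0.00533). The breakdown enzyme and Aldh1a1 were both higher in the sort in which Rarb and Rarg were lower, and no link between them was tested. In the Sertoli sort Aldh1a1 was at 1213 ± 92.6 CPM, and the part of Sertoli-type RNA was not tested.

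Collagens of the basement membrane were among the most abundant genes on the Leydig side. Of 33 collagens tested, 13 were called higher in Leydig and 4 higher in Interstitial (median 0.22). The genes with most reads among those called 2-fold or more higher in Leydig were Col4a1, Sparc, Col18a1, Col4a2, Vim, Serinc3, Lrrc58 and Aldh1a1. Col4a1, the main chain of basement membrane collagen, was at 2021, 1648 and 1889 CPM in Leydig and 716, 699 and 647 in Interstitial (1.38 ± 0.10, adjusted p 2.18e-05). The neighbouring gene Col4a2 differed by 1.33 ± 0.10, Sparc, a collagen-binding secreted protein, by 1.31 ± 0.07, and the 3 chains of collagen IX by 1.88 ± 0.14 (Col9a1), 2.11 ± 0.08 (Col9a2) and 2.99 ± 0.10 (Col9a3). Among 20 laminin and basement membrane genes 10 were called higher in Leydig, Sparc first, then Lama4 (0.97 ± 0.07) and Nid1 (0.97 ± 0.09), and 7 higher in Interstitial. Those 7 included Npnt, nephronectin, at 3.91, 5.73 and 4.47 CPM in Leydig and 30.4, 35.2 and 31.2 in Interstitial (-2.76 ± 0.17, adjusted p 7.96e-06), Frem2 (-1.31 ± 0.09) and Lama5 (-1.23 ± 0.10), all well known from epithelia. Markers of mesonephric epithelium, given below, moved with these 3, and their part in the difference was not tested.

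Glutathione genes were called in both directions. Of 31 tested, 18 were called higher in Leydig and 7 higher in Interstitial, with a median of 0.55. The shares of all genes were 22% and 23.2%, so the count of 7 was near its share. The 5 largest differences were of transferases: Gstm6 (2.83 ± 0.11), Gstm2 (2.54 ± 0.08), Gsta2 (2.40 ± 0.40), Gstm7 (2.40 ± 0.08) and Gstm1 (2.10 ± 0.06), with adjusted p 0.0016 for Gsta2 and at most 8.25e-07 for the others. Gstm2 was at 345, 311 and 316 CPM in Leydig, 56.02, 57.2 and 54.6 in Interstitial and 1131 ± 69.1 CPM in the Sertoli sort. Transcripts of Gstm1 and of the other 3 Gstm genes were 77.8 to 86.1% identical where they aligned, so reads may be shared among them. Opposed to them, the enzymes that make or recycle glutathione were higher in Interstitial, with Gclc, the catalytic subunit of the first step, at -1.33 ± 0.14, Gclm, its modifier, at -1.38 ± 0.17, and Gsr, the reductase, at -1.05 ± 0.18 (adjusted p 0.000152, 0.000404 and 0.00211). Gpx1, a peroxidase, was at 80.4, 95.6 and 85.02 CPM in Leydig and 222, 233 and 229.6 in Interstitial (-1.37 ± 0.08, adjusted p 8.05e-06). Red cell markers, high in Interstitial, moved with these 4 genes, and their part was not tested.

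**Figure D3:**
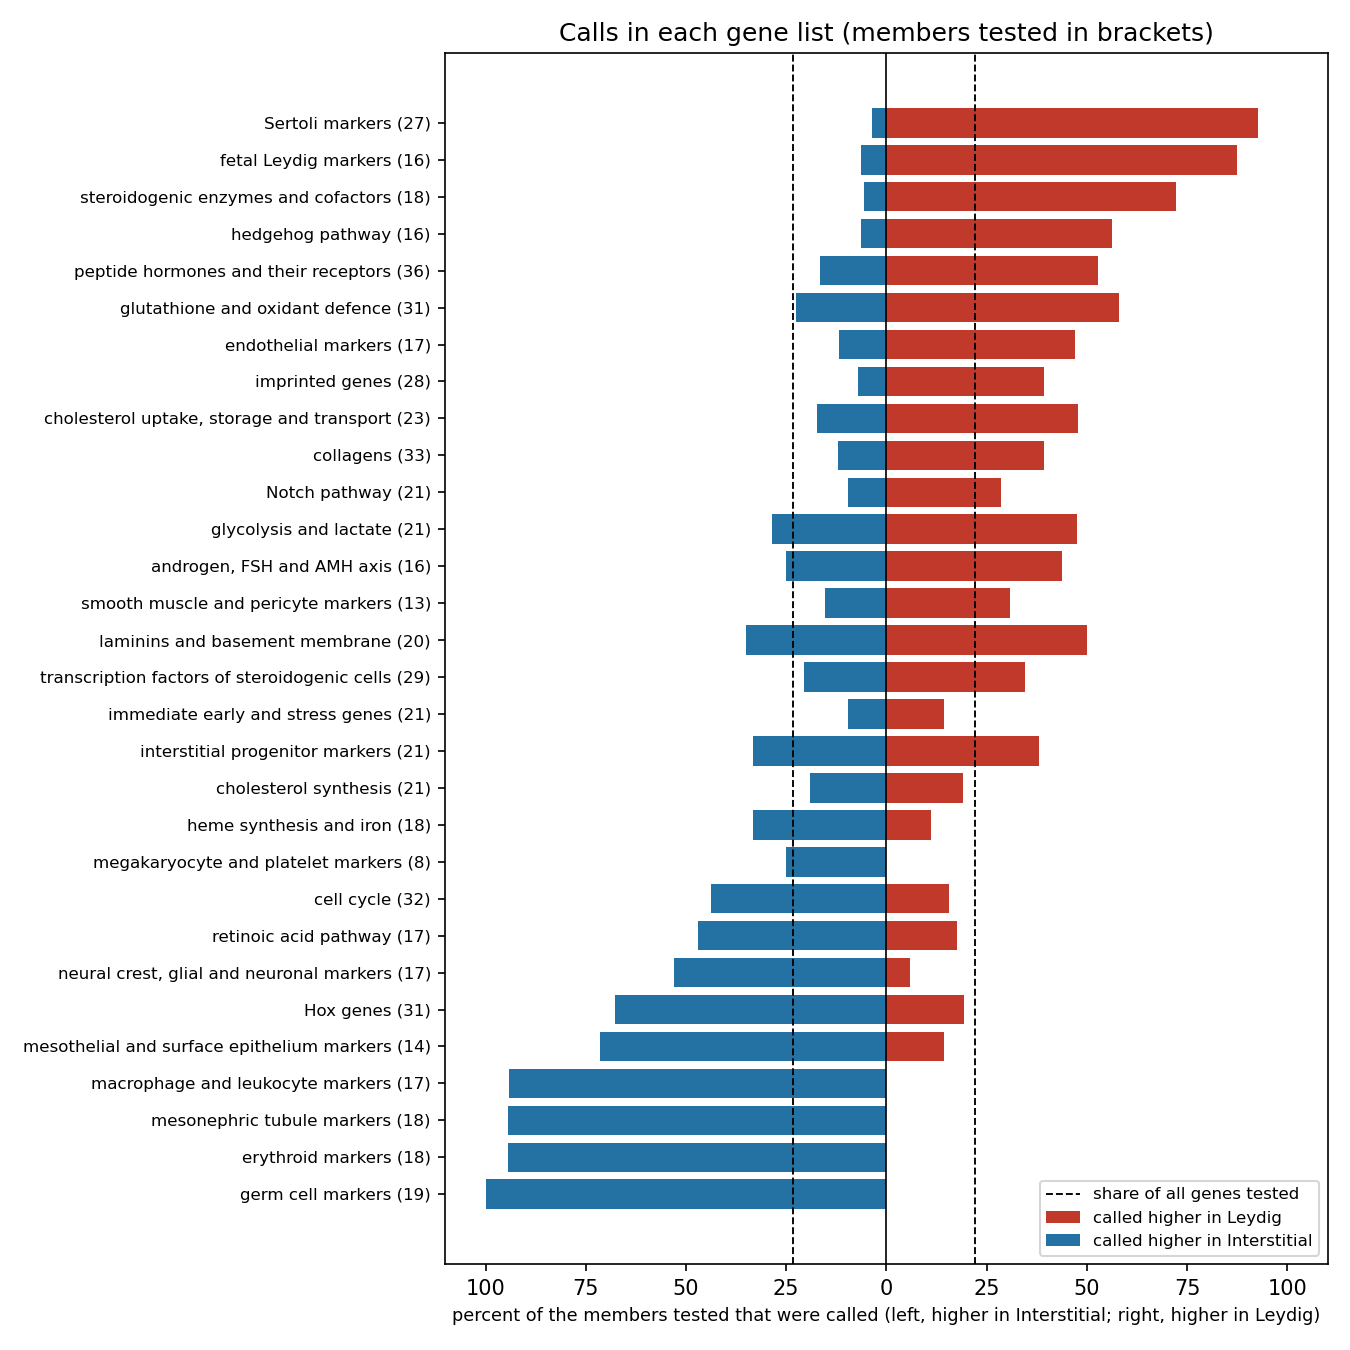
For each gene list, the percent of tested members called higher in Leydig (red, right) and higher in Interstitial (blue, left), with the number tested in brackets; dashed lines give the share of all genes tested, 22% and 23.2%. Sertoli, fetal Leydig and steroidogenic genes extend furthest to the right, and germ cell, erythroid, mesonephric tubule and macrophage markers furthest to the left.

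Among the genes with most reads on the Interstitial side, the largest differences were of red cell genes. Of 19 erythroid markers 18 were tested, and 17 were called higher in Interstitial, with a median of -4.85. Hbb-bs, an adult β-globin (chromosome 7, 103826534 to 103828096, minus strand), was at 12.5, 34.5 and 15.7 CPM in Leydig and 2430, 1962 and 2320 in Interstitial (-6.54 ± 0.49, adjusted p 2.76e-05). Hbb-y, the embryonic β-like globin, was at 78.00, 285 and 118 CPM in Leydig and 4101, 5092 and 4409 in Interstitial (-4.66 ± 0.70, adjusted p 0.000954). The 7 globin genes together took 1.37 to 1.44% of normalised reads in Interstitial libraries, 0.016 to 0.0577% in Leydig libraries and 0.0158 to 0.047% in Sertoli libraries. Among the globins the embryonic Hbb-y was the most abundant in every library of both sorts. Transcripts of Hba-a1 and Hba-a2 were 99.8% identical and those of Hbb-bs and Hbb-bt 93% where they aligned, so the split between such copies is uncertain.

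Membrane and skeleton genes of red cells were on the same side, with the anion exchanger Slc4a1 at -5.81 ± 0.45 and Epb42 at -5.16 ± 0.50 (adjusted p 3.41e-05 and 0.000109). Slc4a1 was at 1.26, 3.34 and 1.87 CPM in Leydig and 99.1, 162 and 112 in Interstitial. The regulators Gata1 and Klf1 were at -2.54 ± 0.44 and -0.97 ± 0.29, and the call of Klf1 was lost without Leydig A or Interstitial B (adjusted p up to 0.152). The isoenzymes of the first step of heme synthesis went opposite ways. Alas2, the erythroid first enzyme, was at 2.67, 4.89 and 3.004 CPM in Leydig and 81.8, 90.8 and 79.5 in Interstitial (-4.50 ± 0.20, adjusted p 1.86e-06), whereas Alas1, its counterpart in other tissues, was higher in Leydig, at 83.9, 64.4 and 78.1 CPM against 34.7, 31.8 and 33.5 (1.16 ± 0.12, adjusted p 0.000125). Of 18 genes of heme and iron 6 were called higher in Interstitial and 2 higher in Leydig, the second being Hmox1, heme oxygenase 1, by 0.82 ± 0.08.

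The promoters of Hbb-bs and Alas2 are shown because these genes lead their groups; capitals mark AGATAA and, in Hbb-bs, also CCACACCC, on either strand.
Hbb-bs, chr7:103827929-103828178, minus strand: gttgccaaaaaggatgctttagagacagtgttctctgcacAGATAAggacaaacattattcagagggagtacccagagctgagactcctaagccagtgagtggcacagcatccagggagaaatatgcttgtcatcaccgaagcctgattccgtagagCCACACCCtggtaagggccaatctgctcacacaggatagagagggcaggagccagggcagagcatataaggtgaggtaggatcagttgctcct
Alas2, chrX:150547167-150547416, plus strand: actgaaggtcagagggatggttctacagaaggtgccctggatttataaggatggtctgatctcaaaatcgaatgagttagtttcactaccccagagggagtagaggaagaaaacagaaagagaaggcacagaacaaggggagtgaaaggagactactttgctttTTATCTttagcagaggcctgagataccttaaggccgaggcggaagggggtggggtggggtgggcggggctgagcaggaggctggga
In Hbb-bs the matches began 210 and 93 bases before the start, and in Alas2 the match began 86 bases before it on the opposite strand. AGATAA was found for 4 of 13 erythroid markers with a window (Hbb-bs, Alas2, Epb42 and Rhd), beside the 7.54% of genes tested given above.

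White cell genes were also higher in Interstitial. Of 17 macrophage and leukocyte markers 16 were called higher in Interstitial, with a median of -1.58. The neutrophil genes S100a9 and S100a8, subunits of calprotectin, had the largest differences, -5.79 ± 0.80 and -4.55 ± 0.78 (adjusted p 0.000973 and 0.00186). S100a9 was at 0.0901, 0.432 and 0.271 CPM in Leydig and 6.48, 23.2 and 12.2 in Interstitial, and Ltf, lactoferrin of neutrophil granules, at 0, 0.345 and 0.0541 in Leydig and 2.22, 11.98 and 4.798 in Interstitial (-5.30 ± 1.08, adjusted p 0.00564). Interstitial B held several times the level of A for S100a9 and for Ltf, with C between them, and with DESeq2 or limma voom the call of Ltf was lost (adjusted p up to 0.201). Csf1r, the macrophage receptor for colony-stimulating factor 1, was at 4.12, 7.54 and 3.71 CPM in Leydig and 13.6, 21.4 and 15.3 in Interstitial (-1.58 ± 0.29, adjusted p 0.00273). Complement genes C1qb and C1qc differed by -1.44 ± 0.33 and -1.51 ± 0.28. Ptprc, the pan-leukocyte antigen CD45, was at 0.511, 1.27 and 0.514 CPM in Leydig and 4.55, 7.83 and 5.61 in Interstitial (-2.78 ± 0.41, adjusted p 0.000881).

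Germ cell genes remained in both sorts after the antibody step and were higher in Interstitial for all 19 markers tested, with a median of -2.49. Dazl, an RNA-binding protein of germ cells, was at 22.5, 99.6 and 44.5 CPM in Leydig and 357, 428 and 427 in Interstitial (-2.68 ± 0.53, adjusted p 0.00375). Pou5f1, the pluripotency factor OCT4, was at 7.09, 31.4 and 13.7 CPM in Leydig and 112, 121 and 115 in Interstitial (-2.59 ± 0.49, adjusted p 0.00307). Ddx4, a helicase of the germ line, differed by -2.54 ± 0.44 and Dppa3 by -2.71 ± 0.54 (adjusted p 0.00198 and 0.00394). Leydig B carried several times the germ cell reads of Leydig A, with all 19 markers higher in B, and C lay between them. Summed over the list, levels ran from 87.9 to 344.9 CPM in Leydig, 1205 to 1372 in Interstitial and 105 to 158 in Sertoli libraries. Hells, a chromatin remodeller of dividing cells and germ cells, was the last of the 8 genes with most reads on the Interstitial side (-1.01 ± 0.11, adjusted p 0.000179). In the cell cycle list 14 of 32 genes were called higher in Interstitial, beside 23.2% of all genes, and 5 higher in Leydig, with a median of -0.16. The 5 fell to 2 without Interstitial B and to 3 without Interstitial A or Leydig A.

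Epithelial genes of the mesonephric tubules were called higher in Interstitial for 17 of 18 tested, with a median of -2.84. Cdh16, a cadherin of kidney and mesonephric tubules, was at 0.391, 0.892 and 0.596 CPM in Leydig and 20.6, 23.9 and 21.8 in Interstitial (-5.10 ± 0.26, adjusted p 3.85e-06). Epcam, a marker of epithelia and of germ cells, was at 6.76, 18.9 and 9.58 CPM in Leydig and 74.3, 87.4 and 80.6 in Interstitial (-2.65 ± 0.36, adjusted p 0.000566), with Leydig B again the highest Leydig library. Kif12, a kinesin of kidney epithelium, was at 0.1803, 0.576 and 0.216 CPM in Leydig and 10.7, 16.9 and 12.1 in Interstitial (-5.16 ± 0.39, adjusted p 2.95e-05).

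The surface epithelium and mesothelium gave smaller differences: 10 of 14 markers were called higher in Interstitial, with a median of -0.55, and 5 were called so without Interstitial A. Krt19 was at 4.81, 4.52 and 4.38 CPM in Leydig and 18.2, 13.3 and 16.04 in Interstitial (-1.76 ± 0.18, adjusted p 0.00014) and Bnc1 differed by -1.18 ± 0.11. Wt1 and Lhx9, which Sertoli cells and progenitors also express, were the 2 members higher in Leydig. The list summed to 952 to 1011 CPM in Leydig and 998 to 1072 in Interstitial libraries, sums that include the abundant Wt1 and Lhx9. The mesonephric list summed to 80.8 to 108 CPM in Leydig and 294.1 to 330.1 in Interstitial libraries.

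**Figure D4:**
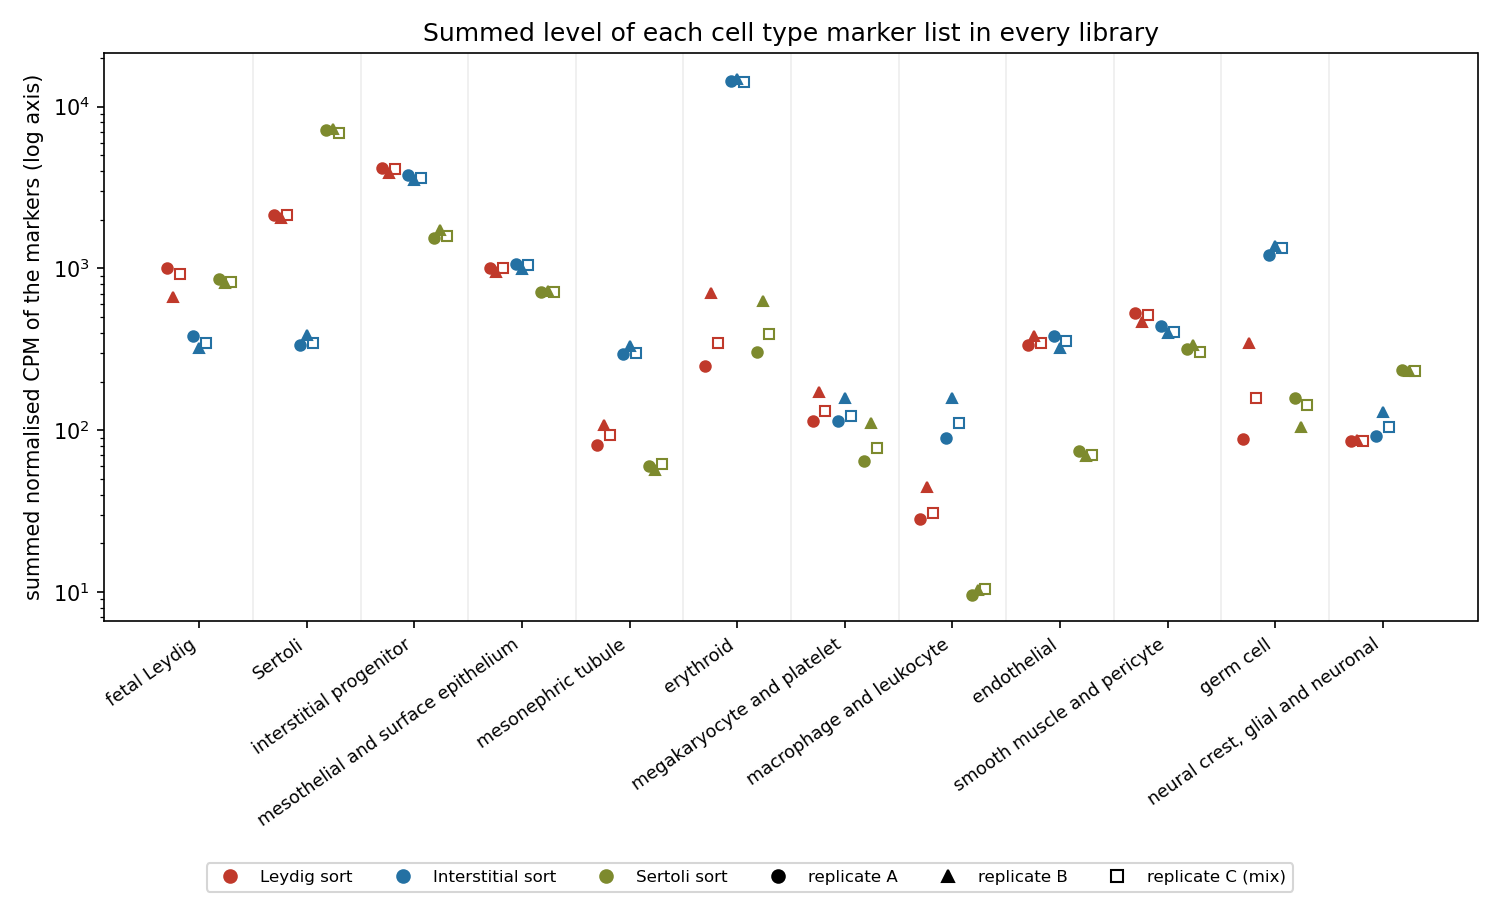
Summed normalised CPM of each cell type marker list (log axis) in all 9 libraries; colours give the sort and symbols the replicate. Erythroid markers are at 14140 to 14870 CPM in Interstitial and 248 to 704 in Leydig libraries, with Leydig B above Leydig A for erythroid, germ cell and macrophage lists; Sertoli markers in Leydig lie between those of the other sorts.

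Endothelial genes did not follow Pecam1. Of 17 tested, 8 were called higher in Leydig and 2, Pecam1 and Plvap, higher in Interstitial, with a median of 0.48. Sox18 and Sox17, factors of endothelial cells, differed by 1.29 ± 0.23 and 1.10 ± 0.18 (adjusted p 0.00236 and 0.00138), and Sox17 was at 5.98, 7.02 and 6.52 CPM in Leydig and 3.27, 2.79 and 3.74 in Interstitial. In the Sertoli sort the mean of Sox17 was 0.59 CPM. For Sox18 it was 2.99 CPM there, beside 2.50 in Interstitial and 6.18 in Leydig. Plvap, a protein of fenestrated vessels, was at 2.37, 2.88 and 2.71 CPM in Leydig and 11.02, 5.53 and 7.92 in Interstitial (-1.66 ± 0.31, adjusted p 0.00282). The gene of the depleted antigen and 8 of the other vessel genes thus went in opposite directions. Pecam1 is also made by germ cells, whose markers moved with it, and their part in its difference was not tested. The count of 8 fell to 4 without Interstitial B and 5 without Leydig B. The summed level was alike, at 337 to 380.2 CPM in Leydig and 323.5 to 384.9 in Interstitial libraries. That sum includes Pecam1 itself, at a mean of 29.98 CPM in Leydig and 69.79 in Interstitial, and so adds genes that went in opposite directions.

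Smooth muscle and pericyte genes were near even (4 higher in Leydig, 2 higher in Interstitial, of 13), and without Interstitial B the 4 fell to 2. Rgs5 and Kcnj8, genes of pericytes, were the 2 higher in Interstitial, at -1.41 ± 0.16 and -1.74 ± 0.27 (adjusted p 0.000207 and 0.00112). Myh11, smooth muscle myosin, was higher in Leydig by 1.10 ± 0.11 (adjusted p 0.000139). Megakaryocyte markers gave 2 calls of 8, both higher in Interstitial, which is near the 23.2% of all genes called so. They were Itgb3 (-1.51 ± 0.14) and Itga2b (-0.77 ± 0.25), the second of which was not called without Leydig A or Interstitial B.

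Sympathetic and chromaffin genes appeared on the Interstitial side at low levels. Of 17 neural crest, glial and neuronal markers tested, 9 were called higher in Interstitial and 1, Sox10, higher in Leydig, with a median of -0.93. Chgb, a granin of chromaffin granules, was at 0.2704, 0.202 and 0.244 CPM in Leydig and 1.64, 13.8 and 5.51 in Interstitial (-5.00 ± 1.03, adjusted p 0.00458). Th, tyrosine hydroxylase, was at 0.0601, 0.0863 and 0.135 CPM in Leydig and 0.562, 2.56 and 1.13 in Interstitial (-4.32 ± 0.91, adjusted p 0.00503). Dbh, the enzyme of noradrenaline synthesis, rested on 1 read in Leydig A and B and 254 in Interstitial A and B, at 0.562, 6.65 and 2.17 CPM in the Interstitial libraries. For these 3 genes Interstitial B was several times as high as A and C lay between, whereas Stmn2, a neuronal tubulin regulator, was even, at 2.71, 2.102 and 2.29 CPM. With limma voom the calls of Chgb and Dbh were lost (adjusted p up to 0.0899 and 0.0725). Sox10, a neural crest factor that mouse Sertoli cells also express, was at 11.7, 9.79 and 10.3 CPM in Leydig, 1.49, 2.39 and 1.23 in Interstitial and 40.2 ± 1.93 CPM in the Sertoli sort.

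Hox genes, which give cells of the trunk their position along the body axis, were higher in Interstitial for 21 of 31 tested and higher in Leydig for 6, with a median of -1.27. The clusters differed. Of 11 Hoxa genes 10 were called higher in Interstitial and 0 higher in Leydig, with the log2 differences of all 11 between -2.66 and -1.16. Of 8 Hoxb genes 7 were called higher in Interstitial, led by Hoxb2 at 0.3005, 0.576 and 0.568 CPM in Leydig and 3.98, 3.37 and 3.49 in Interstitial (-3.05 ± 0.34, adjusted p 0.000219). Hoxb9 was the exception, at 8.59, 8.63 and 7.74 CPM in Leydig, 3.74, 4.23 and 3.47 in Interstitial and 18.2 ± 2.29 CPM in the Sertoli sort (1.11 ± 0.14, adjusted p 0.000381). Of 6 Hoxc genes 3 were called higher in Interstitial.

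The Hoxd cluster ran the other way, with 5 of 6 genes called higher in Leydig and Hoxd1 higher in Interstitial. Hoxd10 was at 37.5, 27.2 and 35.4 CPM in Leydig and 9.16, 9.07 and 10.6 in Interstitial (1.82 ± 0.15, adjusted p 5.18e-05). Hoxd9 differed by 0.78 ± 0.10 and Hoxd8 by 0.61 ± 0.09 (adjusted p 0.000431 and 0.000882). In the Sertoli sort Hoxd9 was at 18.9 ± 1.11 CPM and Hoxd10 at 8.42 ± 0.711 CPM, so Hoxd9 was lower there than in either of the other sorts. Summed over the 31 genes the sorts were alike, at 334 to 394.5 CPM in Leydig and 327 to 354 in Interstitial libraries, against 112 to 118 in Sertoli libraries. The sum is weighted towards abundant Hoxd genes, such as Hoxd3 at a mean of 97.04 CPM in Leydig and 77.99 in Interstitial. The highest Hoxa level was 9.73 CPM, that of Hoxa5 in Interstitial A. Clusters that differed in opposite directions are added up in the sum, so it does not speak for any cluster. The call of Hoxd1, at only 0.161 CPM in Leydig and 0.419 in Interstitial, was lost with DESeq2 and with no low-count filter. It was also lost without any 1 of the 4 tested libraries. Hoxd3 lost its call with library size alone and without Leydig A, Interstitial A or Interstitial B, and Hoxd11 without Leydig A or Interstitial B. Over the alternatives the log2 differences ran from -1.791 to -1.049 (Hoxd1), 0.163 to 0.445 (Hoxd3) and 0.885 to 1.769 (Hoxd11).

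**Figure D5:**
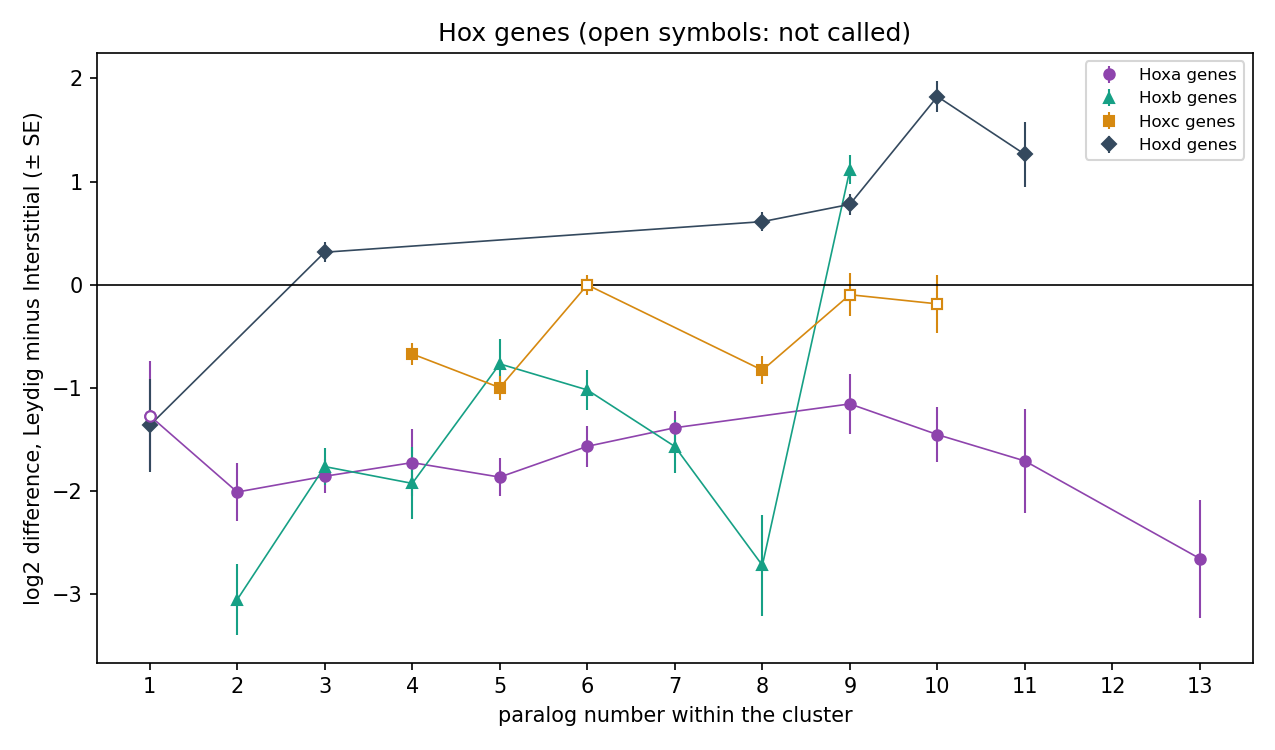
Log2 difference, Leydig minus Interstitial, of 31 Hox genes (vertical axis, bars ± SE) against the paralog number within the cluster (horizontal axis); colours and symbols give the cluster and open symbols the genes that were not called. All Hoxa genes lie below 0, between -2.66 and -1.16, and Hoxd3 to Hoxd11 and Hoxb9 lie above 0.

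Among glycolysis genes 10 of 21 were called higher in Leydig and 6 higher in Interstitial, beside 22% and 23.2% of all genes. Ldhb and Ldha, the subunits of lactate dehydrogenase, were higher in Leydig by 1.04 ± 0.06 and 0.72 ± 0.07, and the glucose transporter Slc2a3, known from germ cells and other cell types, was higher in Interstitial, at -1.14 ± 0.12 (adjusted p 6.3e-06, 7.46e-05 and 0.000181). Imprinted genes, many of them growth regulators of the fetus, gave 11 calls higher in Leydig and 2 higher in Interstitial of 28 tested; without Interstitial B these were 6 and 5. Peg10 led the first by 0.83 ± 0.07. Ascl2, at 0.1202, 0.173 and 0.1895 CPM in Leydig and 2.102, 1.96 and 1.57 in Interstitial (-3.76 ± 0.35, adjusted p 8.63e-05), and Dlk1 led the second. Dlk1, a membrane protein of Leydig precursors that was also on the fetal Leydig list, was at 96.3, 78.8 and 99.9 CPM in Leydig and 170.1, 144.5 and 144 in Interstitial (-0.85 ± 0.11, adjusted p 0.000388), the reverse of the other called Leydig markers.

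The list of the androgen, follicle-stimulating hormone and anti-Müllerian hormone axis gave 7 calls higher in Leydig and 4 higher in Interstitial of 16. The count of 4 was near the 23.2% of all genes called so. Log2 differences of the list ran from -1.11 to 2.91, and the members named here are from the Leydig side. Inhbb and Inha, subunits of inhibin, differed by 2.58 ± 0.12 and 2.26 ± 0.15, and Amhr2, the receptor for anti-Müllerian hormone, was at 102.5, 95.3 and 100 CPM in Leydig and 41.7, 41.8 and 38.98 in Interstitial (1.25 ± 0.06, adjusted p 3.24e-06). Inhba, the activin βA subunit of fetal Leydig cells, differed by 1.02 ± 0.19 (adjusted p 0.00268). Immediate early genes, which respond to handling as well as to signals, gave 3 calls higher in Leydig and 2 higher in Interstitial of 21, with 1 on the Leydig side without Interstitial A and 5 without Interstitial B, and 1 on the other side without Leydig A or Interstitial B. Fos was at 174, 286 and 192 CPM in Leydig and 112, 196 and 137 in Interstitial (0.58 ± 0.29, adjusted p 0.134), and replicate B was the higher of the tested pools in both sorts. The 3 and 2 calls of this list lay under the shares of all genes, 22% and 23.2%. In the list B exceeded A for 18 of 21 genes in Leydig and 21 of 21 in Interstitial.

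The pools within a sort differed in the markers of several cell types. In the Leydig sort B was below A for all 16 fetal Leydig markers (median log2 ratio of B to A -0.43) and above A for 17 of 18 erythroid (0.80), 16 of 17 macrophage (0.46) and 19 of 19 germ cell markers (1.78). For the 27 Sertoli markers that median was -0.07. In the Interstitial sort B was above A for 17 of 17 macrophage markers (0.48) and below A for 16 of 17 endothelial markers (-0.41). The SE varied within these lists, for example 0.42 for Cyp11a1 and 0.53 for Dazl but 0.085 for Gramd1b. Among the Sertoli markers it was 0.07 for Aard and 0.52 for Rhox8.

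Replicate C lay on the side of the call for 8090 of 8146 called genes (99.3%) and for 2737 of 2755 called at 2-fold or more (99.3%). Where A and B were at least 1.5-fold apart with at least 300 reads, C lay between them for 258 of 268 genes in Leydig (96.3%) and 204 of 233 in Interstitial (87.6%). Because C was taken as a mix of A and B, these shares are no independent replication.

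The authors' deposited table of the same comparison listed 1823 genes, 795 higher in Leydig and 1028 higher in Interstitial. Every one was tested here with the same sign, and 1729 were also called here at 2-fold or more, 94.8% of the genes in the authors' deposited table and 62.8% of the 2755 called here. The median absolute difference of the log2 fold changes between the authors' deposited table and the values above was 0.081.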

How the data were processed

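Total RNA of 9 sorted samples (3 each of the Leydig, Interstitial and Sertoli sorts) was depleted of ribosomal RNA and made into stranded libraries sequenced on 4 lanes, per the labels' protocols. The deposited values were read counts per gene, lane and sample, made by the authors with TopHat2 2.0.6 and HTSeq on mm10, per the submitters' processing notes. No source used here gives the annotation release or the strand setting, so genes that overlap, antisense ones included, are uncertain. The authors' deposited table of the comparison holds log2 fold changes, p-values and limma's statistic scores, made with limma per the submitters' processing notes.

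Lanes were summed, and the 5 HTSeq summary lines, among them 32.23 to 38.52% of reads in no feature, were left out. Symbols and coordinates came from GENCODE M21 for 36638 of 38560 identifiers, and 14 more symbols from the authors' deposited table. Reads were scaled by TMM, low genes were removed with filterByExpr, and edgeR 4.0.16 (R 4.3.3, glmQLFit and glmQLFTest) was fitted to replicates A and B of the 3 sorts, so 6 libraries shared 1 estimate of spread with 3 residual degrees of freedom. P-values were adjusted by Benjamini and Hochberg over 18048 genes. The fit was tested on simulated data first. Means are ± SD over A and B. Replicate C entered no test except the alternative with all 9 libraries.

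The comparison, the 30 gene lists and the genes named were chosen with earlier results of these data known. Named were, in each direction, the 12 genes with the largest log2 difference among those at 5 CPM or more, the 8 with most reads among those called at 2-fold or more, Nr5a1, Pecam1, and members of the lists by size or for going against the list; further members were named for their role after their values were seen. Some genes that this rule would name are not reported here. Promoter windows of 250 bases came from RefSeq (GRCm38.p6). Alternatives changed the scaling (DESeq2 size factors or library size), the filter, the test (DESeq2 1.42.0, limma 3.58.1 voom), the libraries, the lanes and the block on the replicate letter.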

Additional observations from a re-analysis of the deposited data

How the results depend on the processing

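Over 16 alternatives the number of genes called ranged from 5535 to 9364 (8146 as reported), except that it was 10791 with all 9 libraries, a fit that counts the mix C as a further replicate although it is no independent one. Calls at 2-fold or more ranged from 2108 to 3032 (2755 as reported). Calls higher in Leydig ranged from 2565 to 3605 with 1 library left out. Of 160 named genes that were called, 147 stayed past the threshold in every alternative that gave a value, 13 lost the call in at least 1, and 0 changed sign. Nr2f2, not called, changed sign with library size alone (-0.007). Libraries left out in turn gave 5 to 9 mesothelial and 1 to 2 megakaryocyte markers called higher in Interstitial. On the Leydig side they gave 4 to 11 endothelial, 2 to 4 smooth muscle, 2 to 4 cholesterol synthesis, 6 to 11 cholesterol uptake, 1 to 5 immediate early and 6 to 11 imprinted genes. Lanes 3 and 4 alone gave 5 endothelial and 2 cholesterol synthesis genes on the Leydig side, and lanes 1 and 2 alone, like the filter at 1 CPM, 5 neural markers higher in Interstitial. With all 9 libraries 16 transcription factors and 5 immediate early genes were called higher in Leydig, and with no low-count filter 8 immediate early genes. The cause was not tested, except that lane pairs hold fewer reads. Calls higher in Interstitial ran from 4 to 8 for cholesterol synthesis (9 with all 9 libraries) and from 3 to 6 for hormones and receptors (7 with all 9 libraries).

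The replicate letters are shared by the sorts, but no label ties the letter to a shared batch. The B minus A difference correlated across genes between Leydig and Interstitial (r = 0.308), Interstitial and Sertoli (0.168) and Leydig and Sertoli (0.097), a description over genes that are not independent. With the letter as a replicate block 9364 genes were called, 2822 at 2-fold or more, and 10 Notch and 10 immediate early genes were called higher in Leydig. Levels under about 0.1 CPM rest on few reads and differences between them were not detectable at this depth.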

Other observations

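The genes that led the Leydig side by size were mostly outside steroid synthesis. Cnga1, a subunit of a cyclic nucleotide-gated channel, was at 6.61, 7.42 and 7.39 CPM in Leydig, 0.4399, 1.01 and 0.738 in Interstitial and 25.98 ± 0.194 CPM (SD) in the Sertoli sort (3.31 ± 0.26, adjusted p 3.24e-05). Acsm3, a mitochondrial acyl-CoA synthetase, was at 6.22, 7.48 and 6.71 CPM in Leydig and 0.635, 0.777 and 0.9104 in Interstitial (3.28 ± 0.18, adjusted p 4.6e-06). Mt3, a metallothionein known from brain, was at 9.64, 7.94 and 8.55 CPM in Leydig and 1.27, 0.9502 and 1.13 in Interstitial (2.97 ± 0.17, adjusted p 6.23e-06). Slc6a14, an amino acid transporter, and Defb19, a defensin, differed by 2.98 ± 0.22 and 2.93 ± 0.17. The libraries of the 2 sorts did not overlap for any of these 5 genes. Among the genes with most reads, Serinc3, a membrane protein, was at 539.7, 541 and 547 CPM in Leydig and 229, 247 and 249 in Interstitial (1.18 ± 0.06, adjusted p 4.65e-06), and Vim, vimentin, differed by 1.25 ± 0.07.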
